A study of Gallus gallus with 8 samples.

Results

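The loricrin genes of the chicken epidermal differentiation complex (EDC) are 3 features of the count files, LOR1-EDC, LOR2-EDC and LOR3-EDC, taken by name from 24902 features in all. The study compared chicken skin cells grown flat and in layered cultures. Its 8 libraries fall into 4 groups: 3 skin equivalents, which are cultures in 3 dimensions in which primary keratinocytes differentiate; 1 library of primary keratinocytes before confluence; 1 library of confluent primary fibroblasts; and 3 confluent monolayers of primary keratinocytes. No genotype, strain, age or added agent is given for any group in the sources used here, and nothing there states that replicate libraries come from different animals or dishes. The p-values below therefore reflect the spread among these libraries only, part or all of which may be technical.

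Loricrin is known from mammals as a glycine-rich protein of the cornified envelope, the cross-linked protein shell that replaces the membrane of keratinocytes in the outermost skin. Transglutaminases join it to other envelope proteins late in differentiation. The EDC is the gene cluster that holds loricrin together with many other envelope and cornification genes, and birds carry several loricrin genes in it. The gene table used here, of RefSeq assembly GRCg7b, matched 0 of the 3 names, so neither coordinates nor sequences are printed.

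Gene counts ranged from 27329706 to 36728801 per library. Names of basal keratins (Krt15, Krt5L1 to Krt5L3, Krt14L1 and Krt14L2) took between 1.08% and 4.10% of gene counts in the 7 keratinocyte libraries and 138 counts in fibroblasts. Names of keratins of differentiated layers (Krt9L1 to Krt9L4 and Krt78L1 to Krt78L4) took 6.89%, 8.78% and 9.87% in skin equivalents 1 to 3, and at most 0.0747% in a confluent monolayer. Keratin names known from simple epithelia (Krt7, Krt8, Krt18 and Krt19) took 0.00734% to 0.00927% in skin equivalents and 0.331% to 0.592% in confluent monolayers, and their part in the loricrin changes was not tested. Of 18 symbols for fibroblasts, pigment cells, immune cells and vessels, 0 matched a deposited name, so these cell types were not checked. The titles of skin equivalents 2 and 3 and of monolayers 2 and 3 carry the mark wo, of unstated meaning, and skin equivalent 1 and monolayer 1 lack it. The titles also carry the codes 20, 34 and 56 for replicates 1, 2 and 3 of both groups, and 20 for the subconfluent library. Skin equivalent 1 carries the number 7 after a d in its title and the monolayers carry 8, while skin equivalents 2 and 3 carry none.

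All 3 loricrin genes were high in every skin equivalent and nearly without counts in every other library. The lowest count of a loricrin gene in a skin equivalent was 2425, and the highest in any other library was 24. In the fibroblast library each of the genes had 0 counts. Values are given as CPM, counts scaled to a common library size over all 8 libraries; 3 counts, used as the floor, correspond to 0.0807 to 0.117 CPM. CPM is not divided by gene length, so levels are compared between libraries and not between genes.

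LOR1-EDC stood at 946, 719 and 1282 CPM in skin equivalents 1 to 3, against 0.101, 0.0879 and 0.115 CPM in confluent monolayers 1 to 3. These monolayer values are 3, 3 and 4 counts. The skin equivalents differed among themselves by 1.78-fold at most, and the groups were far apart.

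LOR2-EDC stood at 963, 94.8 and 169 CPM in skin equivalents 1 to 3, against 0.0337, 0.0586 and 0.0573 CPM in confluent monolayers 1 to 3, where it had 1, 2 and 2 counts. Skin equivalent 1 was 10.2-fold higher than skin equivalent 2. Even the lowest skin equivalent lay above every monolayer.

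LOR3-EDC stood at 670.4, 105 and 175 CPM in skin equivalents 1 to 3, against 0.808, 0.0293 and 0 CPM in confluent monolayers 1 to 3. It had 24, 1 and 0 counts in these monolayers, so nearly all of its monolayer signal came from monolayer 1. The groups did not overlap, and skin equivalent 1 was again the highest, at 6.36-fold over skin equivalent 2. The share of all features without such overlap was not counted, so separation of the groups alone sets none of the loricrin genes apart.

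**Figure D1:**
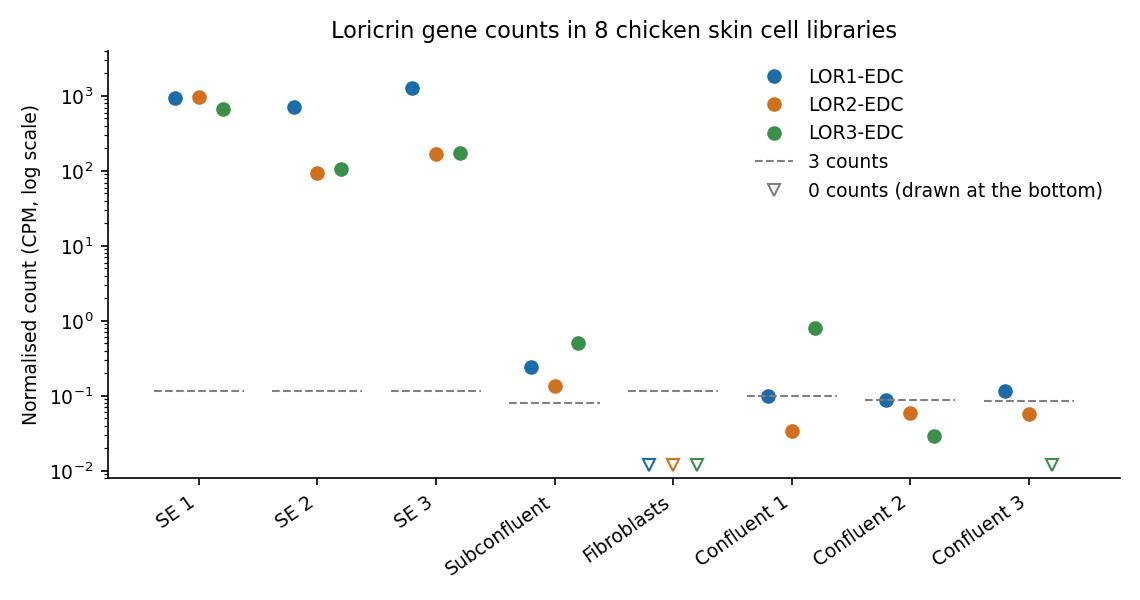
Normalised counts (CPM, log scale) of LOR1-EDC, LOR2-EDC and LOR3-EDC in each of the 8 libraries (SE, skin equivalent), with a dashed line at 3 counts and open triangles for 0 counts. The 3 genes lie between 94.8 and 1282 CPM in skin equivalents and at or under 0.808 CPM elsewhere.

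The main comparison asked how loricrin RNA differed between skin equivalents and confluent monolayers. In a fit of these 6 libraries over all features, the edgeR quasi-likelihood test called 49.5% of 13230 features, 25.9% as higher in skin equivalents, so a call alone sets no feature apart. LOR1-EDC rose with a log2 fold change of 13.19 ± 0.44 (standard error; adjusted p = 1.84e-05), LOR2-EDC with 12.87 ± 1.38 (adjusted p = 4.91e-04) and LOR3-EDC with 10.20 ± 1.49 (adjusted p = 0.00169). Scaling by total count split the calls over all features into 2517 higher and 3918 lower, against 3427 and 3122, and gave 12.92, 12.59 and 9.95 for LOR1-EDC, LOR2-EDC and LOR3-EDC. In the fit with TMM scaling they ranked 11, 15 and 45 by log2 fold change among the features tested, ranks that rest on few monolayer counts. The genes passed the filter on low counts through the skin equivalents, so only a rise could be called. In bulk RNA a difference in the number of cells that express a gene and a difference in RNA per cell cannot be told apart.

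Ratios of counts summed over the libraries of each group, scaled by library size, show how few monolayer counts these folds rest on. Skin equivalents held 76508 LOR1-EDC counts and monolayers 10, a ratio of 9717 with a 95% counting interval of 5283 to 20264. LOR2-EDC had 31962 counts in skin equivalents and 5 in monolayers, a ratio of 8119 (3479 to 25005). LOR3-EDC had 24763 counts in skin equivalents and 25 in monolayers, a ratio of 1258 (852 to 1944). Such intervals describe counting error alone and leave out the spread between libraries. The reads have no molecular identifiers, so even the counting error may be understated.

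Single libraries moved the size of the change for LOR2-EDC and LOR3-EDC but not the call. Without skin equivalent 1 the log2 fold changes were 11.24 for LOR2-EDC and 9.04 for LOR3-EDC, and that of LOR1-EDC was 13.22. Without monolayer 1 the value of LOR3-EDC was 13.95, above LOR1-EDC (13.08) and LOR2-EDC (12.57), and without monolayer 3 that of LOR3-EDC was 9.58. The order of the loricrin genes by fold is thus not settled. Among the 4 libraries marked wo, the ratio of skin equivalents to monolayers was 9949 for LOR1-EDC, 2295 for LOR2-EDC and 9761 for LOR3-EDC, the last on 1 monolayer count. Between the unmarked skin equivalent 1 and monolayer 1 it was 9310 for LOR1-EDC, 28433 for LOR2-EDC (on 1 monolayer count, interval 5103 to 1123092) and 825 for LOR3-EDC. With 1 unmarked library a group, whether the changes differed between marked and unmarked libraries could not be settled.

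Together the loricrin genes took 0.234%, 0.0861% and 0.152% of gene counts in skin equivalents 1 to 3, against 1.00e-04%, 2.00e-05% and 1.97e-05% in confluent monolayers 1 to 3. The mean share was 0.157% ± 0.0740 in skin equivalents and 4.66e-05% ± 4.64e-05 in monolayers (SD, n = 3 each; two-sided exact permutation test p = 0.1, the smallest that 3 against 3 libraries allow).

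The make-up of the loricrin counts differed between skin equivalents. In skin equivalent 1, LOR1-EDC made up 36.7% of the 67318 loricrin counts (exact 95% binomial interval 36.3% to 37.0%), LOR2-EDC 37.3% and LOR3-EDC 26.0%. In skin equivalent 2, LOR1-EDC made up 78.2% of 23531 counts (77.7% to 78.8%), LOR2-EDC 10.3% and LOR3-EDC 11.5%. In skin equivalent 3, the shares were 78.8% of 42384 counts for LOR1-EDC (78.4% to 79.2%), 10.4% for LOR2-EDC and 10.8% for LOR3-EDC. Skin equivalents 2 and 3 were thus close to each other in make-up although their loricrin totals differed, and skin equivalent 1 stood apart.

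The same counts can be written as ratios between genes within a library, in which library size also cancels. The count ratio of LOR1-EDC to LOR2-EDC was 0.982 in skin equivalent 1, 7.59 in skin equivalent 2 (95% counting interval 7.28 to 7.92) and 7.58 in skin equivalent 3 (7.35 to 7.83). That of LOR1-EDC to LOR3-EDC was 1.41, 6.82 (6.55 to 7.10) and 7.32 (7.10 to 7.55) in skin equivalents 1 to 3, a less close match between 2 and 3. For LOR2-EDC to LOR3-EDC it was 1.44, 0.898 and 0.965. Skin equivalent 3 was higher in CPM than skin equivalent 2 by 1.78-fold for LOR1-EDC, 1.78-fold for LOR2-EDC and 1.66-fold for LOR3-EDC. Skin equivalent 1 over skin equivalent 3 was 0.738 for LOR1-EDC, 5.70 for LOR2-EDC and 3.83 for LOR3-EDC. LOR1-EDC therefore lay within the range of the other skin equivalents there, while LOR2-EDC and LOR3-EDC lay above it.

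**Figure D2:**
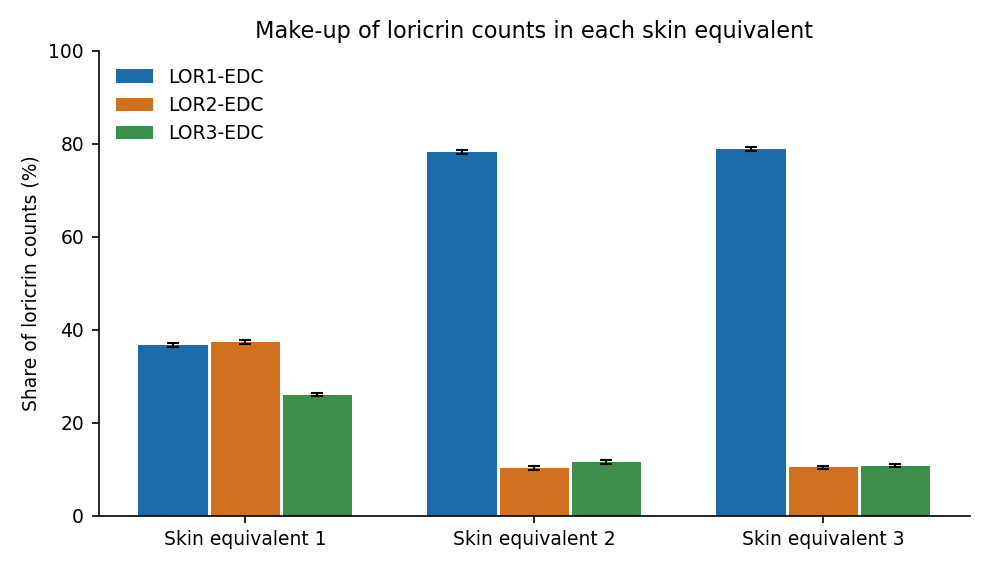
Share of each loricrin gene in the summed loricrin counts of skin equivalents 1, 2 and 3, with exact 95% binomial intervals as error bars. LOR1-EDC holds 36.7% in skin equivalent 1 and 78.2% and 78.8% in skin equivalents 2 and 3.

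Whether the ratio between loricrin genes differed between skin equivalents and monolayers could not be settled with so few monolayer counts. The log2 ratio of LOR1-EDC to LOR2-EDC, with 0.5 added to each count, averaged 1.94 ± 1.70 in skin equivalents and 0.85 ± 0.37 in monolayers (SD, n = 3 each; two-sided exact permutation p = 0.4, adjusted p = 1 over the 3 ratios). For LOR1-EDC to LOR3-EDC the means were 2.05 ± 1.34 in skin equivalents and 0.53 ± 3.05 in monolayers (exact permutation p = 0.7, adjusted p = 1). For LOR2-EDC to LOR3-EDC they were 0.11 ± 0.36 in skin equivalents and -0.32 ± 3.31 in monolayers (exact permutation p = 1, adjusted p = 1). Without monolayer 1 the differences were -0.15 for LOR1-EDC to LOR3-EDC and -1.42 for LOR2-EDC to LOR3-EDC, both with the sign turned.

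Skin equivalent 1 was set against skin equivalents 2 and 3 over all tested features with a mean of at least 10 CPM in skin equivalents, as a description of these libraries without a test. On the log2(CPM + 0.5) scale, skin equivalent 1 minus the mean of the other two was 2.92 for LOR2-EDC, 2.30 for LOR3-EDC and -0.02 for LOR1-EDC. The median of 8069 other features was 0.03, and 4275 of them were higher in skin equivalent 1. Skin equivalent 1 was higher by at least as much as for LOR2-EDC in 8 of these features (0.0991%). It was higher by at least as much as for LOR3-EDC in 22 (0.273%). Features lower there by as much, down to between -5.75 and -5.5, also occurred and are left out of these counts. Of 20 other EDC names above the same minimum, 19 were higher in skin equivalent 1 on this log2 scale, with a median of 1.62. Among these 20 names, 2 (10%) reached the value of LOR2-EDC and 5 (25%) that of LOR3-EDC, far larger shares than over all features. EDP3-EDC (3.99) and EDMPN1-EDC (2.95), named here after their values were seen, exceeded LOR2-EDC. EDYM1-EDC (-0.32) was the EDC name that lay below LOR1-EDC on this scale. Relative to the plain mean CPM of skin equivalents 2 and 3, skin equivalent 1 stood at 0.945 for LOR1-EDC. That ratio was lower for EDYM1-EDC (0.640), EDbeta-EDC (0.798) and LOC107055127-EDC (0.833), so how many EDC names were higher depends on the scale. In this contrast LOR1-EDC had a value near the centre of all features, whereas LOR2-EDC and LOR3-EDC lay on the high side with most other EDC names. Between skin equivalents 3 and 2, LOR1-EDC was not central: it was 0.83 higher in skin equivalent 3, and 7.71% of the same features differed by at least as much in either direction, with a median absolute difference of 0.225. Monolayer 1, which also lacks the mark wo, was set against monolayers 2 and 3 in the same way. It was higher for 15 of the 20 other EDC names, with a median of 0.50 against -0.04 over the 8069 features. Some of these names were near the floor too, such as EDYM1-EDC with 0 monolayer counts and EDGH-EDC with 1. Only 12 of all 24 other EDC names tested reached the minimum of the filter on low counts in all 3 monolayers. LOR3-EDC was higher in monolayer 1 by 1.35, at 0.808 CPM against 0.0293 and 0 in monolayers 2 and 3. LOR2-EDC (-0.06) and LOR1-EDC were too near the floor to tell. The added 0.5 is large beside such values, so the size of these differences among monolayers depends on it.

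Several other measures differed between skin equivalent 1 and the others. Fragments that mapped to several places made up 7.06%, 8.66% and 8.37% of skin equivalents 1 to 3, and the keratin names of differentiated layers were at their lowest there, at 6.89%. Basal keratin names took 1.89%, 2.77% and 2.20% of gene counts in skin equivalents 1 to 3. Skin equivalent 1 is also the one without the mark wo in its title. The part of these differences in the loricrin make-up was not tested. Fragments that map to several places carry no gene in these counts, so values of related genes such as the loricrins are uncertain to the extent that their sequences are shared.

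**Figure D3:**
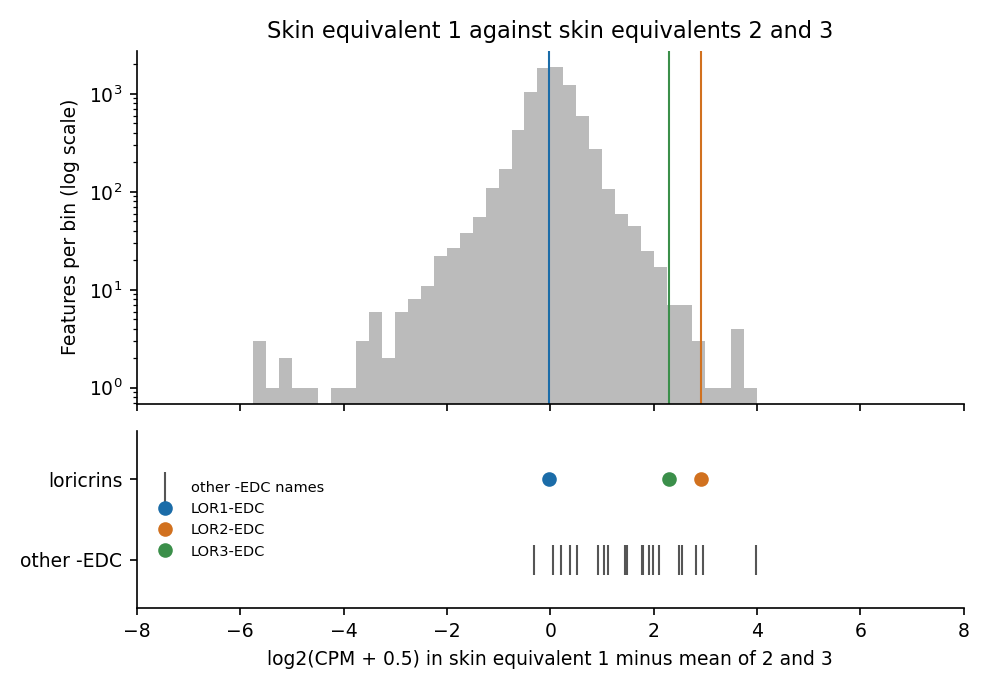
Distribution over 8069 features (upper panel, features per bin on a log scale) of log2(CPM + 0.5) in skin equivalent 1 minus the mean of skin equivalents 2 and 3, with the loricrin genes as vertical lines and, in the lower panel, as points above the 20 other EDC names. LOR1-EDC lies at -0.02, LOR3-EDC at 2.30 and LOR2-EDC at 2.92.

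The other names of the EDC give the setting of these changes. Of 32 other names ending in -EDC, 24 passed the filter on low counts. Of these, 21 rose, 1 fell and 2 were not called, against 25.9% of all features that rose. Their median log2 fold change was 8.04, against 0.08 for all features tested. As with the loricrin genes, 12 of the 24 passed the filter only with the help of skin equivalents, because fewer than 3 monolayers reached its minimum. For these a fall could hardly be called, and the counts over all 24 are a description. Of the other 12, which reached the filter's minimum in all 3 monolayers, 10 rose, 1 fell and 1 was not called. The other 8 names had at most 36 counts in a skin equivalent. Only 2 of the 24 had at most 3 counts in each monolayer, as LOR2-EDC did.

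EDYM1-EDC, at 29.0, 72.8 and 18.0 CPM in skin equivalents 1 to 3, had 0 counts in the monolayers and was at least 436-fold higher by the means, with 3 counts per library as the floor. EDGH-EDC had a log2 fold change of 11.87 ± 1.49 on 1 monolayer count, EDCH3-EDC of 11.10 ± 0.75 and EDCH4-EDC of 10.80 ± 0.92 (edgeR adjusted p = 9.26e-04, 9.59e-05 and 2.18e-04). CRNN-EDC, named after cornulin, another protein of cornifying epithelia, fell to 0.154 ± 0.0372 CPM in skin equivalents, against 0.709 ± 0.374 CPM in monolayers (SD, n = 3 each). Its log2 fold change of -2.17 ± 0.58 passed the edgeR test at an adjusted p of 0.0176, but not when skin equivalent 2 or skin equivalent 3 was left out. In skin equivalents 1 to 3 CRNN-EDC had 0.192, 0.117 and 0.153 CPM, at or just above the floor of 3 counts, so the size of this fall is uncertain. EDQL-EDC, EDCH4-EDC and EDWM-EDC, which drew the most counts among the other EDC names without regard to gene length, had 4601 ± 2204, 1747 ± 1586 and 1133 ± 975 CPM in skin equivalents (SD, n = 3 each). In confluent monolayers EDQL-EDC had 359 ± 268 CPM, EDCH4-EDC 0.983 ± 0.289 and EDWM-EDC 1.18 ± 0.876.

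**Figure D4:**
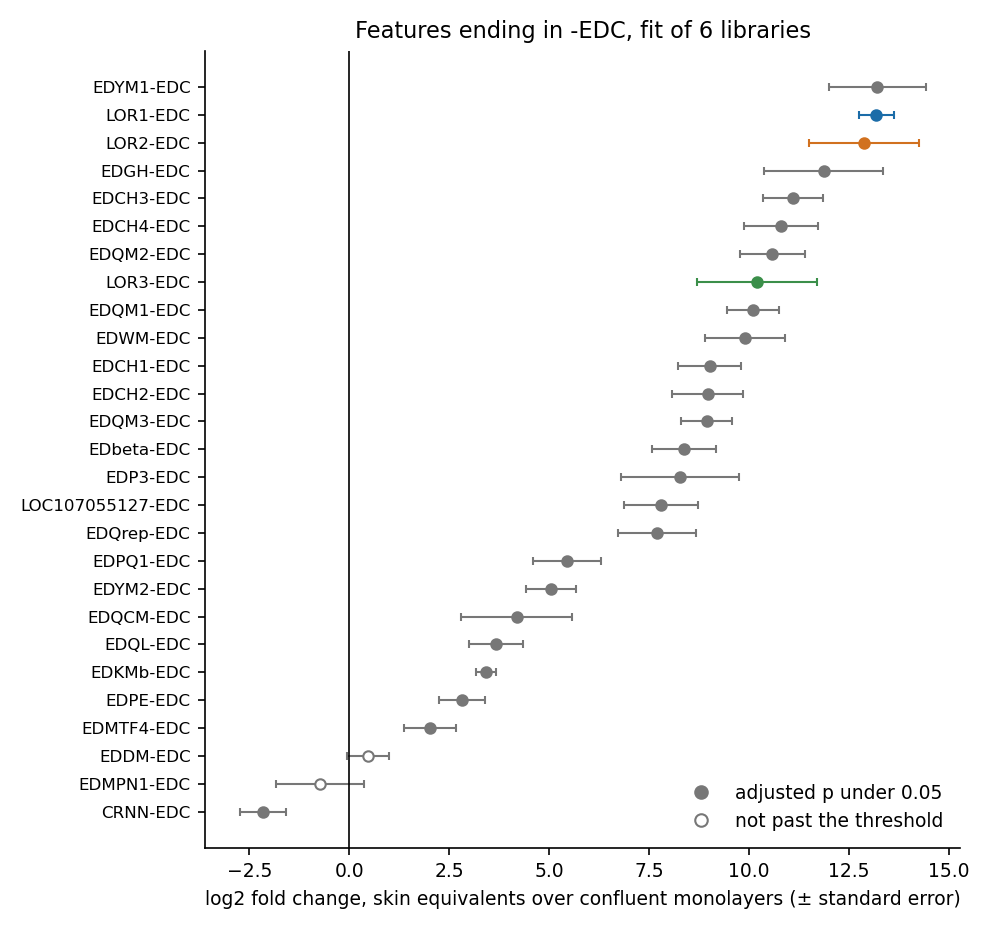
log2 fold change (± standard error) of skin equivalents over confluent monolayers for the 27 tested features ending in -EDC, with filled points past the threshold and the loricrin genes in colour. LOR1-EDC (13.19) and LOR2-EDC (12.87) lie near the top and LOR3-EDC (10.20) below them; the value of EDYM1-EDC, at 0 monolayer counts, depends on the prior count of the fit.

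Summed loricrin counts as a part of all EDC counts varied less among skin equivalents than either total. This concerns the sum only, because its make-up differed between the libraries. LOR1-EDC held 36.7%, 78.2% and 78.8% of it in skin equivalents 1 to 3, and LOR2-EDC held 37.3%, 10.3% and 10.4%. EDC names took 2.04%, 0.682% and 1.03% of gene counts in skin equivalents 1 to 3, and the loricrin genes made up 11.5%, 12.6% and 14.8% of these. In confluent monolayers 1 to 3, EDC names took 0.0855%, 0.0492% and 0.0317% of gene counts, and the loricrin genes made up 0.117%, 0.0406% and 0.0619% of these. Each skin equivalent thus had a higher loricrin part of EDC counts than any monolayer. This follows from the folds given above and is no separate result. EDQL-EDC, with a log2 fold change of 3.67, held 33967 counts over the monolayers, where all EDC names had 23887, 14796 and 9694 counts in monolayers 1 to 3.

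Subconfluent keratinocytes held 9, 5 and 19 counts of LOR1-EDC, LOR2-EDC and LOR3-EDC, or 0.242, 0.135 and 0.511 CPM. Skin equivalents were compared with them in a model of all 8 libraries. This takes the spread of the lone subconfluent library to be that of the replicated groups, and there is no replicate check. LOR1-EDC and LOR2-EDC again passed the filter on low counts through the skin equivalents alone. For them only a rise could be called. In this comparison 22.5% of 15019 features were called, 9.15% as higher in skin equivalents. LOR1-EDC rose with a log2 fold change of 11.96 ± 0.71 (edgeR adjusted p = 3.13e-04) and LOR2-EDC with 11.53 ± 2.14 (adjusted p = 0.0109). LOR3-EDC rose with 9.26 ± 2.37 (adjusted p = 0.0319), a call not reached when skin equivalent 3 was left out (9.56, adjusted p = 0.0586) or with no filter on low counts (9.27, adjusted p = 0.0642). Without skin equivalent 1 the values were 9.89 for LOR2-EDC and 8.09 for LOR3-EDC, both still called. Between skin equivalent 1 and the subconfluent library, which share the absence of the mark wo and the code 20 in their titles, the ratio was 3906 for LOR1-EDC, 7157 for LOR2-EDC and 1312 for LOR3-EDC.

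Subconfluent keratinocytes were then set against confluent monolayers, a comparison in which 1.33% of features were called. LOR1-EDC had a log2 fold change of 1.22 ± 0.56 (edgeR adjusted p = 0.239), with 9 counts in the subconfluent library and 3, 3 and 4 in the monolayers. LOR2-EDC had 1.34 ± 2.14 (adjusted p = 0.733) and LOR3-EDC 0.94 ± 1.77 (adjusted p = 0.776). In the subconfluent library LOR2-EDC had 5 counts, against 1, 2 and 2 in monolayers 1 to 3. LOR3-EDC had 19 counts there, against 24, 1 and 0. None of the 3 differences passed the test. With 1 subconfluent library and so few counts, the test could hardly call differences of this size. The share of features called also moved widely when single libraries were left out. The value of LOR3-EDC was 4.69 without monolayer 1, 0.36 without monolayer 2 and 0.30 without monolayer 3, so it has no settled size.

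Fibroblasts, the cells of the dermis, give the background of these genes in another skin cell type. They had 0 counts of each gene, and 3 counts correspond to 0.116 CPM there. Each skin equivalent was at least 6205-fold higher than this floor for LOR1-EDC, at least 818-fold for LOR2-EDC and at least 910-fold for LOR3-EDC. Against confluent monolayers, where 44.5% of features were called and 23% as lower in fibroblasts, none of the loricrin genes was called (edgeR adjusted p = 0.0647 for LOR1-EDC, 0.6 for LOR2-EDC and 0.384 for LOR3-EDC). LOR1-EDC had 3, 3 and 4 counts and LOR2-EDC 1, 2 and 2 counts in monolayers 1 to 3, close to the floor, so a fall could hardly be seen. LOR1-EDC passed the test with scaling by total count (adjusted p = 0.0407). The order of the groups by mean CPM was skin equivalents, subconfluent keratinocytes, confluent monolayers and fibroblasts for each gene, and beyond the step below skin equivalents neighbours in this order were not shown to differ.

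The features whose pattern over the 8 libraries was most like that of each loricrin gene were named by the root mean square difference of log2(CPM + 0.5) values centred on their own mean, among 15019 features. For LOR1-EDC the nearest was Krt9L4, an acidic keratin named after keratin 9, at a difference of 0.63 log2 units, followed by EPPKL1, named after the plakin family protein epiplakin, at 0.89 and EDQM2-EDC at 1.08. Krt9L4 had 3014, 2086 and 2984 CPM in skin equivalents 1 to 3, highest in skin equivalent 1. LOR1-EDC was highest in skin equivalent 3, at 1282 CPM against 946 and 719 in skin equivalents 1 and 2, so their order among skin equivalents differed. For LOR2-EDC the nearest were EDQM2-EDC at 0.50, LOR3-EDC at 0.52 and EDQM1-EDC at 0.64. For LOR3-EDC they were EDQM2-EDC at 0.37, EDQM1-EDC at 0.45 and EDCH1-EDC at 0.47. Among features with an identifier in place of a name, ENSGALG00000027494 was nearest to LOR1-EDC (1.12) and ENSGALG00000044527 to LOR2-EDC (0.89) and LOR3-EDC (0.82).

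EDQM2-EDC, which came first for both LOR2-EDC and LOR3-EDC, had 583, 169 and 259 CPM in skin equivalents 1 to 3 and 0.404, 0.0879 and 0.172 CPM in monolayers 1 to 3, highest in library 1 of each group. By the same measure LOR1-EDC differed from LOR2-EDC by 1.22 and from LOR3-EDC by 1.35, further than LOR2-EDC and LOR3-EDC differed from each other. These distances describe 8 libraries that share their scaling, and the large step between skin equivalents and the other libraries dominates each profile. The size of that step depends on the added 0.5 and on CPM in skin equivalents. The distances and the nearest features thus partly reflect levels, which are not compared between genes here. Pearson correlations of the profiles were 0.981 for LOR1-EDC with LOR2-EDC, 0.982 for LOR1-EDC with LOR3-EDC and 0.994 for LOR2-EDC with LOR3-EDC.

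**Figure D5:**
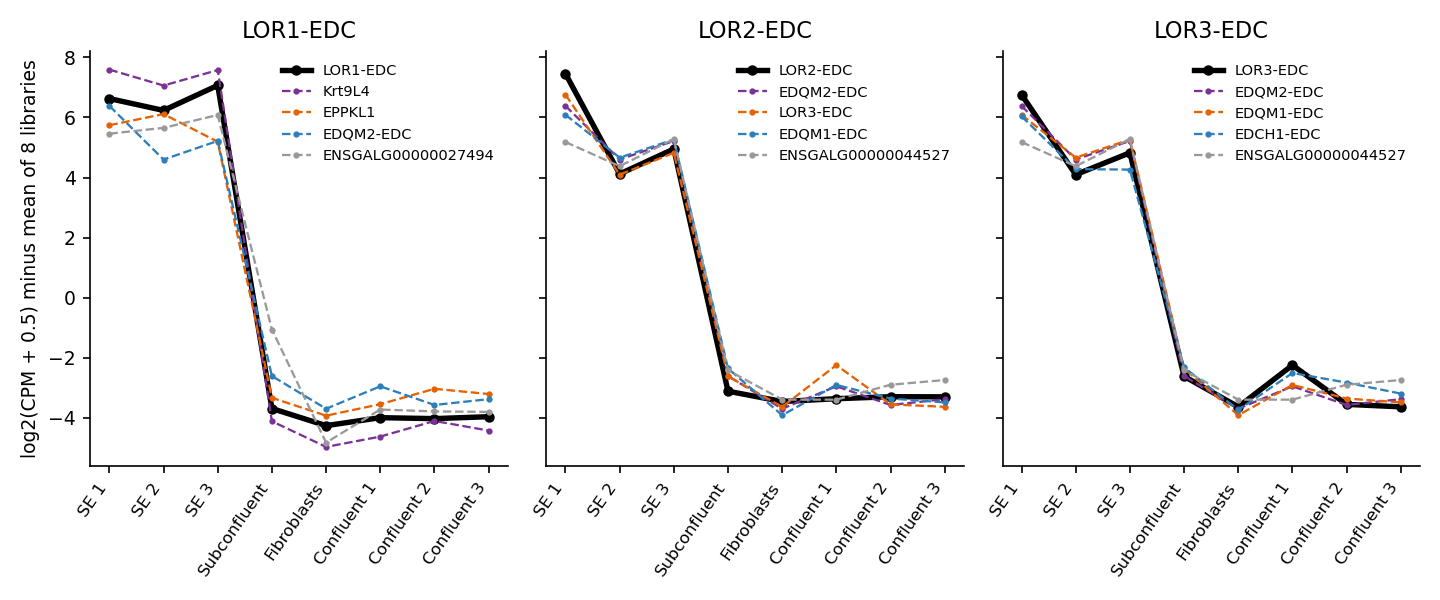
Profiles of LOR1-EDC, LOR2-EDC and LOR3-EDC (solid lines) as log2(CPM + 0.5) minus the mean of 8 libraries. Dashed lines are the 3 nearest named features of each and the nearest feature with an identifier. The LOR2-EDC and LOR3-EDC profiles peak in skin equivalent 1, while LOR1-EDC is highest in skin equivalent 3, at 1282 CPM against 946 and 719 in skin equivalents 1 and 2.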

How the data were processed

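The authors' deposited files hold raw whole-number counts per feature, without normalisation, in 1 file per sample. Tools listed in the submitters' processing notes, with no role stated, are STAR 2.6.1a, bcl2fastq 2.19.1.403, DESeq2 1.22.2 and RSEM. The sources used here give no genome build, annotation or strand setting. Per the labels' protocols, poly(A) RNA was made into directional libraries and read in pairs. The 4 rows for fragments of no gene (28.7% to 35.5% of fragments in all) stayed out of library sizes and tests.

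Tests used edgeR 4.0.16 in R 4.3.3 (quasi-likelihood, robust, TMM, default expression filter, Benjamini-Hochberg at 0.05 over all tested features). A run on simulated counts used far smaller folds and features with higher mean monolayer counts. It therefore does not check the tests in the setting of the loricrin genes. DESeq2 1.42.0 and limma 3.58.1 (voom) served as alternatives. Standard errors derive from the fold change and test statistic. A floor of 3 counts was used.

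Named features follow a rule: the members; for each, the 3 nearest named features and the nearest with an identifier; and of the other -EDC names the 4 largest rises, the largest fall and the 3 highest levels. Members, lists and rules were chosen with earlier results of these data known.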

Additional observations from a re-analysis of the deposited data

How the results depend on the processing

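The rises of LOR1-EDC, LOR2-EDC and LOR3-EDC over confluent monolayers kept their direction and call under all 16 alternatives run, among them other scalings, DESeq2, limma-voom, other filters, single libraries left out and the title mark wo as a term. The last was chosen after seeing the data, as was an interaction of group and mark, which left too few libraries to be informative. Each skin equivalent had at least 2425 counts of each loricrin gene, and no other library had more than 24. The direction could thus hardly turn under any alternative, and its stability adds no separate support. With limma-voom the log2 fold changes were 11.92 for LOR2-EDC and 11.51 for LOR3-EDC, and with only the libraries marked wo they were 10.96 and 12.79. With the replicate block they were 13.17, 12.46 and 10.64 for LOR1-EDC to LOR3-EDC. The main fit had no such block, because the labels do not state that equal numbers mark pairs. Same-numbered libraries do share a title code whose meaning is unstated. Their correlations of deviations were -0.06, -0.13 and 0.16, and with so few libraries these cannot show whether a source is shared. The number of other EDC names that fell was 1, but 2 with the replicate block, 0 with at least 50 counts in 3 libraries, and 0 to 1 with single libraries left out. With no filter on low counts, also tried after seeing the data, 22 rose and 1 fell. Against subconfluent keratinocytes, the LOR3-EDC call was lost with no filter on low counts (9.27), and the value ranged from 8.09 to 9.68 with single libraries left out. In fibroblasts, LOR1-EDC passed the test with scaling by total count (fitted log2 fold change -4.80, which depends on the prior count, adjusted p = 0.0407), and its adjusted p ranged from 0.0604 to 0.102 with single libraries left out. With single libraries left out, the difference in log2 ratio ranged from 0.60 to 2.07 for LOR1-EDC to LOR2-EDC (the highest without skin equivalent 1), from -0.15 to 2.84 for LOR1-EDC to LOR3-EDC and from -1.42 to 1.75 for LOR2-EDC to LOR3-EDC. With total counts as the only scaling, the median over all features in skin equivalents became -0.18 (log2, against 0.08), with 2517 rises and 3918 falls, against 3427 and 3122. The few monolayer counts limit the size of each fold.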
